A study of Mus musculus with 11 samples.

Results

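Thrombospondins, tenascins and the SPARC family are proteins that cells secrete into the extracellular matrix. Most of them regulate how cells and collagen interact more than they bear load themselves, and they are called matricellular for that reason. In the adult heart several are scarce in healthy myocardium and abundant in healing infarcts. Thrombospondin-1 binds the receptors CD36 and CD47 and can activate latent TGF-β. Tenascin-C appears in embryonic and injured tissue, whereas tenascin-X organizes collagen fibrils in normal connective tissue. SPARC binds calcium and collagen, and SPARCL1 and the SMOC proteins share its calcium-binding domain. The members were taken by name: the thrombospondins Thbs1, Thbs2, Thbs3 and Thbs4 (4 genes), the tenascins Tnc and Tnxb (2 genes) and the SPARC family genes Sparc, Sparcl1, Smoc1 and Smoc2 (4 genes). All 10 were among the 25006 genes with deposited counts and among the 14779 genes that passed the low-count filter.

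The data are 11 stranded mRNA libraries of mouse left ventricle. Of the naive libraries, 2 have the genotype field Vegfc fl/fl (control) and 3 the field Vegfc fl/fl ; LysMCre (called LysMCre here), and 3 libraries of each genotype come from hearts with myocardial infarction (MI). MI was made by permanent ligation of the left anterior descending coronary artery, infarcted tissue was collected 9 days later, and naive hearts gave a piece of like mass from the same area. The study's methods give these 9 days, while its results text speaks of a week after MI. LysMCre expresses Cre recombinase from the Lyz2 locus, which is active in myeloid cells, so that Vegfc is meant to be lost there and not in other heart cells. The genotype field gives the controls as floxed mice without Cre, while the protocol text and the methods call them LysMCre mice. The study names the samples of a group as individual animals, and age and sex are not stated for these mice.

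Total counts were 10824989 to 26782728 a library, and 3 reads corresponded to 0.101 to 0.363 CPM (reads scaled to library size), a floor for counting error only. Vegfc was at 21.9 to 45.5 CPM with the genotypes overlapping. Lyz2, which carries the Cre insertion, was at 2121 to 5380 CPM in the 5 control libraries and at 12.4 to 1392 CPM in 5 of 6 LysMCre libraries, but at 4565 CPM in the library labelled LysMCre M149. Results of the members and counts of the gene lists that rest on M149 are therefore given with and without it. All naive libraries had Y-linked transcripts (summed 152 to 195 CPM) with Xist at 0.624 to 11.8 CPM, and all MI libraries had Xist at 188 to 403 CPM with summed Y-linked transcripts at 0 to 1.85 CPM. MI and sex therefore cannot be told apart in any comparison of MI with naive hearts. The 6 cardiomyocyte markers summed to 45030 to 63070 CPM in naive and 1704 to 15640 CPM in MI libraries. The 4 lung epithelium markers summed to 0 to 2.16 CPM in naive libraries, all of it from Scgb1a1, and to 0 to 0.470 CPM in MI libraries. Scgb1a1 was called lower after MI in both genotypes, and the surfactant genes Sftpc, Sftpb and Sftpa1 were at 0 in all naive libraries. In LysMCre hearts the naive and MI groups of Scgb1a1 overlapped, with 22 reads in naive M149, 0 in M150 and 2 in M34.

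The members lie on 8 chromosomes of the mouse genome (GRCm38, GENCODE M21), and only Smoc2 and Thbs2 are close neighbours, with 260709 bases between them on chromosome 17. Smoc2 (ENSMUSG00000023886) lies at 14279506 to 14404790 on the plus strand and Thbs2 (ENSMUSG00000023885) at 14665500 to 14694235 on the minus strand. Tnxb (ENSMUSG00000033327) lies elsewhere on chromosome 17, at 34670535 to 34719815. Thbs1 (ENSMUSG00000040152) lies on chromosome 2 at 118111876 to 118127133, Thbs3 (ENSMUSG00000028047) on chromosome 3 at 89215180 to 89226837 and Thbs4 (ENSMUSG00000021702) on chromosome 13 at 92751590 to 92794818. Tnc (ENSMUSG00000028364) lies on chromosome 4 at 63959785 to 64047015, Sparc (ENSMUSG00000018593) on chromosome 11 at 55394500 to 55423183, Sparcl1 (ENSMUSG00000029309) on chromosome 5 at 104079111 to 104113733 and Smoc1 (ENSMUSG00000021136) on chromosome 12 at 81026808 to 81186414. Exons of Thbs3 share 318 bases with exons of Mtx1 on the opposite strand. Thbs1 shares 208 exonic bases with Gm29233, Tnc 176 with 8030451A03Rik and Tnxb 3 with Cyp21a2-ps, all on the opposite strand. Unlike Mtx1, these overlapping genes have no counts of their own. Whether strand was used in counting is not given in the sources used here, so the counts of Thbs3, Thbs1, Tnc and Tnxb are uncertain to that extent.

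RefSeq's promoter table (GRCm38.p6) matched 6 of the 10 members, Thbs2, Thbs3, Thbs4, Tnc, Tnxb and Sparc. Thbs1, Sparcl1, Smoc1 and Smoc2 had no entry. The 250 bases before the start are shown for Tnc, Thbs2 and Thbs4, which rose after MI and whose windows hold matches, and for Tnxb, which was lower. Capitals mark the motifs searched on both strands: the TATA box (TATAAA), the AP-1 site (TGACTCA), the GC box (GGGCGG) and the MCAT element (CATTCC).
Tnc, chr4:64047016-64047265, minus strand: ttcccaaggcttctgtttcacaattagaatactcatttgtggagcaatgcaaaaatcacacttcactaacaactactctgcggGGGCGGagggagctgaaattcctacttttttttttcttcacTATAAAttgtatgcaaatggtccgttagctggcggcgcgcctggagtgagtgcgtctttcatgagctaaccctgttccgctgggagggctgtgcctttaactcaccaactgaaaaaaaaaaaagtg
Thbs2, chr17:14694263-14694512, minus strand: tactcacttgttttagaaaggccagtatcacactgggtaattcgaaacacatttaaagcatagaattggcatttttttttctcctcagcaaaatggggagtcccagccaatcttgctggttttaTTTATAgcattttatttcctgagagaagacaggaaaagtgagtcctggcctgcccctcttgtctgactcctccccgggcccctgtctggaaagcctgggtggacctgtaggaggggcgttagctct
Thbs4, chr13:92794819-92795068, minus strand: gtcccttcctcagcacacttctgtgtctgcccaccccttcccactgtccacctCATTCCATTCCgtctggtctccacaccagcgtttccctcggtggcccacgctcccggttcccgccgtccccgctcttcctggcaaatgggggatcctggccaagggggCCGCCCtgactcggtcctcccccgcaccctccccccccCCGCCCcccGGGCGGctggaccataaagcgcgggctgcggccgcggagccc
Tnxb, chr17:34670285-34670534, plus strand: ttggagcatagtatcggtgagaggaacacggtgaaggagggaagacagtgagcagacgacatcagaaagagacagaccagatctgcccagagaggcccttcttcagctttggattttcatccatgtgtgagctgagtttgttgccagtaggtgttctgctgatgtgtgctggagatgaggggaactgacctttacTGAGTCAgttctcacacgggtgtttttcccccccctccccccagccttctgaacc
Tnc had a TATAAA match 126 to 121 bases before the start used here and a GC box 167 to 162 bases before it. From a second annotated Tnc start, whose window is not shown, the same matches lay 205 to 200 and 246 to 241 bases before. Thbs2 had TATAAA on the opposite strand, 126 to 121 bases before its start. Thbs4 had 3 GC boxes and 2 MCAT matches, the latter sharing a base. Tnxb had a single AP-1 match 55 to 49 bases before its start. Of the windows not shown, that of Thbs3, which also rose, held 1 GC box, and that of Sparc, which rose too, held 0 matches of the motifs searched. The Sparc window lies within the gene and overlaps an annotated Sparc exon. Among all 32851 promoters of the table, the same 250 bases held a TATA box in 12.4%, an AP-1 site in 4.46%, a GC box in 32.7% and an MCAT element in 12.6%. The matches are letters in these windows and describe no binding.

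The first question was which members changed between naive and infarcted hearts within each genotype. In control hearts, 7 of 10 members rose and 1 fell after MI in the quasi-likelihood F test of edgeR, with p-values adjusted over all genes by the Benjamini-Hochberg method. Among all genes tested, 26.3% rose and 24.1% fell. In LysMCre hearts the members that rose were the same 7 and none fell, where 30.0% of all genes rose and 27.7% fell. Naive and MI libraries did not overlap in 9 members in control and 8 in LysMCre hearts, as in 72.1% and 64.3% of all genes. The risers were all 4 thrombospondins, Tnc, Sparc and Smoc1. The median log2 fold change of the 10 members was 2.51 in control and 2.25 in LysMCre hearts, against 0.13 and 0.10 over all genes tested. Since the members were chosen with earlier results of these data known, these counts and medians are a description. Without M149 the same 7 members rose in LysMCre hearts, and no member's log2 fold change moved by more than 0.35 (Tnc). Without M006, a control MI library, 3 members fell in control hearts and not 1, namely Tnxb, Sparcl1 and Smoc2.

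**Figure D1:**
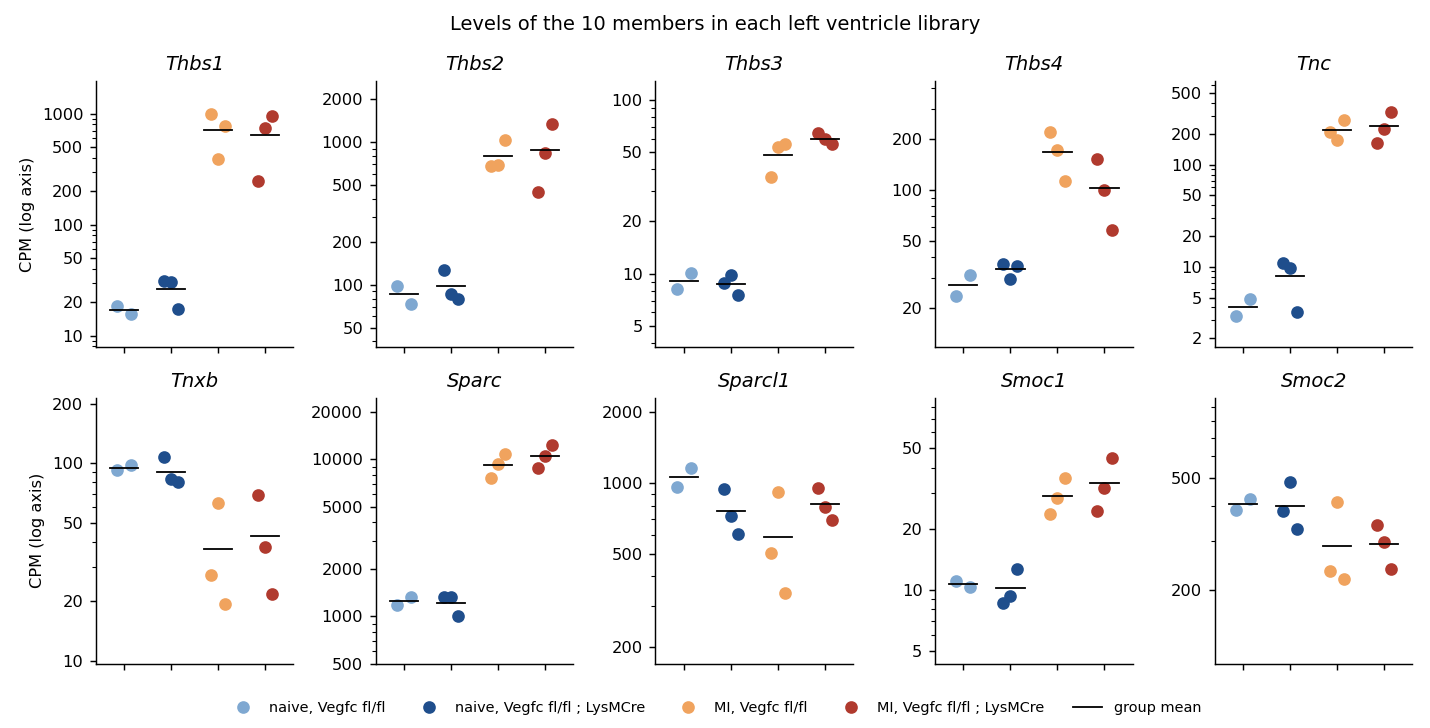
CPM of each member (log axis, 1 panel a gene) in each library, by group from left to right as in the legend, with the group mean as a line. Thbs1, Tnc and Sparc of MI hearts lie far above all naive hearts (Tnc 165 to 330 against 3.26 to 10.9 CPM), Tnxb of MI hearts lies below all naive hearts, and the naive and MI points of Sparcl1 and Smoc2 overlap across genotypes.

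Markers of several cell types moved with these results. All 6 cardiomyocyte markers and all 3 pericyte markers fell after MI in both genotypes. Of 6 fibroblast markers, 4 rose in control and 5 in LysMCre hearts, and their sum went from 3878 to 5137 CPM in naive to 12350 to 20440 CPM in MI hearts. All 4 smooth muscle markers rose, from a sum of 141 to 275 CPM to 575 to 2429 CPM. All 5 markers of tendon and cartilage rose, from 11.2 to 26.8 CPM to 252 to 559 CPM, with Col2a1 at 0 in the naive control libraries. The 5 endothelial markers summed to 971 to 1320 CPM in naive and 516 to 1109 CPM in MI hearts, but they did not move together. In control hearts 1 was called lower (Emcn) and 0 higher, and in LysMCre hearts 1 was called higher (Cdh5) and 1 lower (Egfl7). The 5 macrophage markers summed to 462 to 1244 CPM in naive and 942 to 1489 CPM in MI hearts, with 2 called higher in each genotype. The 1244 CPM were those of M149, and the other naive libraries lay at 462 to 798 CPM. Marker calls without M149 are not given here. Platelet markers, whose cells store thrombospondin-1 protein, summed to 129 to 152 CPM in naive and 46.5 to 74.9 CPM in MI hearts. Most of this sum was Pf4, at 124 to 147 CPM in naive and 38.2 to 66.8 CPM in MI hearts. In each genotype Pf4 was called lower and Itga2b higher, so the platelet markers did not move together. The part of these shifts in the members' changes was not tested. In whole tissue, fewer cells of a type and less RNA per cell cannot be told apart.

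Among the thrombospondins taken as members, Thbs1, a trimeric form that binds CD36 and CD47, rose most. In control hearts, naive M44 and M45 held 15.7 and 18.5 CPM of Thbs1, and M006, M38 and M40 held 386, 981 and 776 CPM after MI. In LysMCre hearts it was at 17.4, 30.3 and 31.2 CPM in naive M149, M150 and M34, and at 248, 948 and 743 CPM in MI M35, M900 and M913. Every MI library lay above every naive library, and M35 and M006 were the lowest of the MI libraries. The log2 fold change was 5.39 (standard error 0.68, adjusted p = 0.000329, edgeR), a 41.8-fold rise, in control and 4.62 (standard error 0.55, adjusted p = 0.000108, edgeR), a 24.6-fold rise, in LysMCre hearts.

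Thbs2, the second trimeric thrombospondin, acts in collagen fibril assembly. Its naive levels were 72.9 and 98.6 CPM in control and 79.5, 86.1 and 128 CPM in LysMCre hearts. After MI they were 693, 682 and 1037 CPM in control and 448, 1340 and 839 CPM in LysMCre hearts. The groups before and after MI did not overlap, while M900 and M35, both LysMCre, were the highest and the lowest MI library. Thbs2 rose 9.38-fold in control (log2 fold change 3.23, standard error 0.47) and 8.96-fold in LysMCre hearts (3.16, standard error 0.40), with adjusted p of 0.000565 and 0.000145 by edgeR.

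Thbs3 and Thbs4 belong to the pentameric thrombospondins. Thbs3 ranged from 7.55 to 10.1 CPM over naive libraries, and after MI it stood at 53.7, 36.2 and 55.7 CPM in control and 64.4, 55.8 and 59.6 CPM in LysMCre hearts. It rose 5.32-fold in control and 6.86-fold in LysMCre hearts, with log2 fold changes of 2.41 (standard error 0.22) and 2.78 (standard error 0.19), the smallest standard errors of the 7 risers. Thbs4, known from tendon and muscle, had naive levels of 23.6 to 36.6 CPM. After MI it was at 171, 219 and 112 CPM in control and 152, 58.0 and 99.4 CPM in LysMCre hearts, so all MI libraries stood above the naive ones with M900 the closest to them. The rise of Thbs4 was 6.09-fold in control (log2 fold change 2.61, standard error 0.41, adjusted p = 0.0008, edgeR) and 3.03-fold in LysMCre hearts (1.60, standard error 0.34, adjusted p = 0.0025, edgeR).

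The tenascins went in opposite directions. Tnc, the tenascin of wounds and embryos, was at 4.82 and 3.26 CPM in naive control and 3.63, 9.68 and 10.9 CPM in naive LysMCre hearts. After MI it reached 173, 211 and 271 CPM in control and 165, 330 and 222 CPM in LysMCre hearts. No MI library came near a naive library. Tnc rose 54.0-fold in control (log2 fold change 5.75, standard error 0.55, adjusted p = 0.00014, edgeR), the largest rise of the 10 members and the 117th largest of 14779 genes. In LysMCre hearts it rose 29.6-fold (4.89, standard error 0.43, adjusted p = 3.97e-05, edgeR), again the largest of the members.

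Tnxb encodes tenascin-X, whose loss weakens skin and joints. It was at 97.9 and 92.1 CPM in naive control and 80.0, 82.8 and 107 CPM in naive LysMCre hearts. After MI it was at 63.2, 27.4 and 19.4 CPM in control and 68.8, 21.9 and 37.5 CPM in LysMCre hearts. All MI values lay below all naive values, with M006 and M35 close to them. In control hearts Tnxb fell, to a level 2.60-fold lower (log2 fold change -1.38, standard error 0.50, adjusted p = 0.0401, edgeR). This call was lost without any of M44, M45, M150, M34, M38, M40 and M913, with adjusted p between 0.0501 and 0.133, and without M006 the log2 fold change was -2.02. In LysMCre hearts the log2 fold change of Tnxb was -1.08 (standard error 0.46, adjusted p = 0.0645, edgeR), and it passed the threshold without M35 (-1.60, adjusted p = 0.0139) as well as without M006 or M40.

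In the SPARC family, Sparc, which with Sparcl1 had the highest naive levels per exon length of the members, rose further. It was at 1326 and 1176 CPM in naive control and 999, 1321 and 1336 CPM in naive LysMCre hearts. After MI it was at 9338, 7642 and 10840 CPM in control and 8797, 12390 and 10510 CPM in LysMCre hearts. Both naive groups were tight and every MI library stood far above them. The rise was 7.41-fold in control (log2 fold change 2.89, standard error 0.36, adjusted p = 0.000309, edgeR) and 8.67-fold in LysMCre hearts (3.12, standard error 0.31, adjusted p = 5.32e-05, edgeR). Sparc alone took 0.0867% to 0.116% of all reads in naive and 0.844% to 1.45% in MI libraries, and the 10 members together took 0.188% to 0.275% and 1.17% to 1.88%.

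Sparcl1 (SPARC-like 1, or hevin), abundant in vascular tissue, did not follow Sparc. Its naive levels were 1153 and 958 CPM in control and 606, 723 and 945 CPM in LysMCre hearts. After MI they were 916, 503 and 341 CPM in control and 952, 696 and 788 CPM in LysMCre hearts. The control groups did not overlap, whereas the LysMCre groups overlapped over most of their range. In control hearts the log2 fold change was -0.85 (standard error 0.37, adjusted p = 0.0768, edgeR), which did not pass the threshold with all libraries and did without M006 (-1.32, adjusted p = 0.00829). In LysMCre hearts it was 0.10 with a 95% interval from -0.64 to 0.84, and -0.04 without M149.

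The SMOC genes, named for SPARC-related modular calcium-binding proteins, also parted. Smoc1 had naive levels of 8.63 to 12.7 CPM, and after MI it stood at 28.5, 23.6 and 35.4 CPM in control and 24.5, 44.5 and 31.9 CPM in LysMCre hearts. It rose 2.72-fold in control (log2 fold change 1.45, standard error 0.28, adjusted p = 0.00227, edgeR) and 3.30-fold in LysMCre hearts (1.72, standard error 0.25, adjusted p = 0.000281, edgeR), the smallest rise of the members called in control hearts. Smoc2 was at 422 and 386 CPM in naive control and 330, 487 and 384 CPM in naive LysMCre hearts, and at 411, 234 and 218 CPM in MI control and 342, 237 and 296 CPM in MI LysMCre hearts. Naive and MI values overlapped in both genotypes. Its log2 fold changes were -0.49 (95% interval -1.13 to 0.15) in control and -0.46 (95% interval -1.04 to 0.13) in LysMCre hearts. Neither passed the threshold in this fit, but some other settings called Smoc2 lower in LysMCre hearts, as given at the end. Without M006 the value in control hearts was -0.84 (adjusted p = 0.0187, edgeR).

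**Figure D2:**
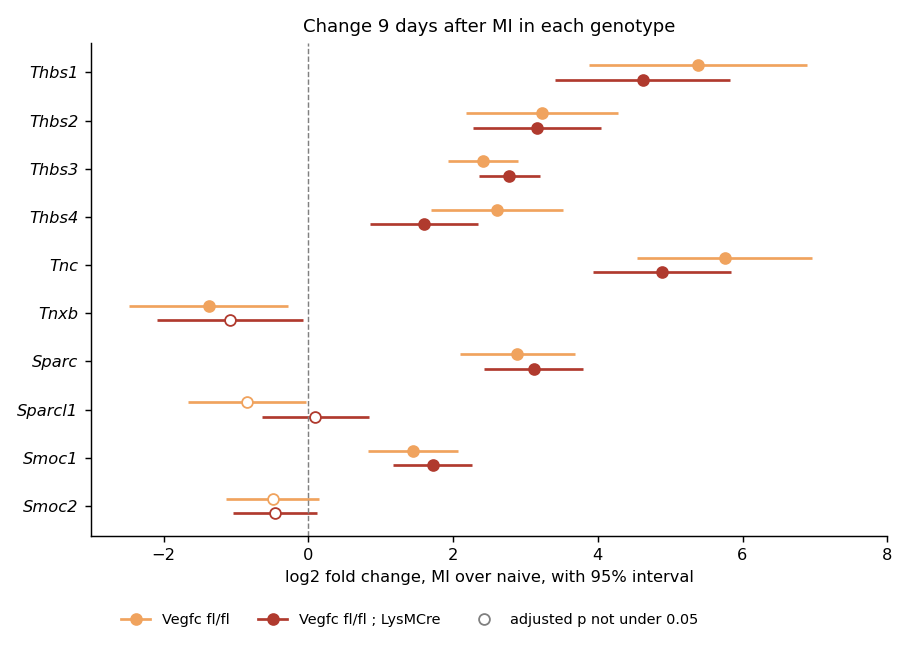
Log2 fold change of MI over naive hearts for each member with its 95% interval, in control and LysMCre hearts from the same fit. Filled points passed the adjusted p threshold, open points did not: 7 members lie to the right of 0 in both genotypes, and Tnxb is filled in control hearts only (-1.38).

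The order of the levels within the family was set by CPM per kb of exon, a scale that allows different genes to be compared. In naive control hearts Sparcl1 and Sparc led with mean levels of 360 and 330 CPM per kb, and their ranges overlapped. Smoc2 followed at 58.1, Thbs2 at 12.2, Thbs4 at 8.35, Tnxb at 7.78, Smoc1 at 3.06, Thbs1 at 2.81, Thbs3 at 1.89 and Tnc, the lowest, at 0.520 CPM per kb. Thbs4 and Tnxb overlapped, as did Smoc1 and Thbs1, and the other neighbours did not. Naive LysMCre hearts had Sparc at 322 and Sparcl1 at 258 CPM per kb, again overlapping, and otherwise differed in order only in that Thbs1 (4.32) stood above Smoc1 (2.92), which also overlapped.

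After MI the mean level of Sparc was 2448 CPM per kb in control and 2789 CPM per kb in LysMCre hearts, which placed it 10th and 6th among 14779 genes. Sparcl1 came next at 200 and 276 CPM per kb. Thbs1 and Thbs2 moved up to 118 and 115 CPM per kb in control and to 106 and 125 CPM per kb in LysMCre hearts, overlapping each other in both. Thbs4, Smoc2 and Tnc formed a group at 50.9, 41.4 and 28.1 CPM per kb in control and at 31.4, 41.9 and 30.8 CPM per kb in LysMCre hearts, with overlaps between neighbours. Thbs3 (10.1 and 12.4) and Smoc1 (8.34 and 9.61) overlapped below them. Tnxb was last at 3.001 and 3.50 CPM per kb, below Smoc1 with no overlap. The mean levels of Tnc and Tnxb thus stood 10th and 6th of the 10 in naive hearts and 7th and 10th after MI.

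**Figure D3:**
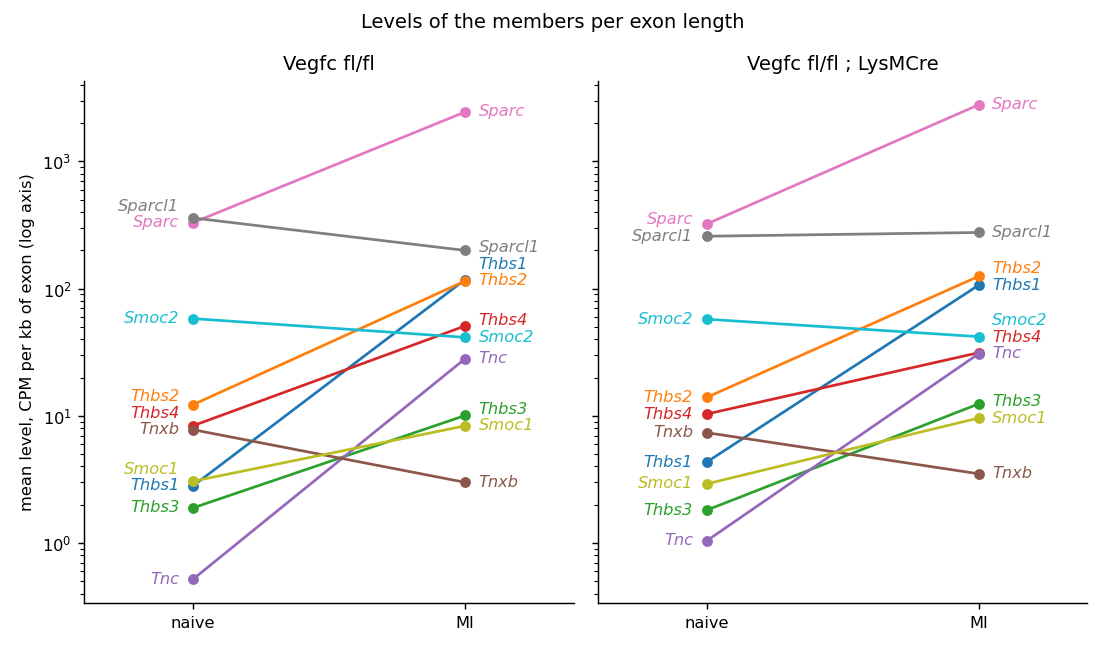
Mean level of each member in CPM per kb of exon (log axis) in naive and MI hearts, control on the left and LysMCre on the right, joined by a line for each gene. Tnc and Thbs1 have the steepest lines (Tnc from 0.520 to 28.1 in control hearts), Tnxb slopes down in both panels, and Sparc separates from Sparcl1.

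Ratios within a library, also on CPM per kb, do not depend on the scaling of libraries. Sparc over Sparcl1 was 0.892 to 1.42 in the 5 naive libraries. After MI it was 7.91, 11.8 and 24.7 in control M006, M38 and M40, and 7.17, 13.8 and 10.3 in LysMCre M35, M900 and M913. Tnc over Tnxb was 0.0557 to 0.184 in naive libraries and 3.76 (M35) to 23.6 (M900) after MI. Tnxb thus exceeded Tnc per length in every naive library, and Tnc exceeded Tnxb in every MI library. Smoc2 over Smoc1 narrowed from 13.1 to 26.3 in naive to 2.68 to 7.26 in MI libraries. Thbs2 over Thbs1 went from 2.47 to 4.63 in naive to 0.603 to 1.57 in MI libraries. Thbs1 over Thbs4 was 0.266 to 0.548 in naive libraries and 0.883 (M35) to 8.85 (M900) after MI, so that both extremes were MI LysMCre libraries. Thbs3 over Thbs4 showed no such separation, with 0.146 to 0.236 in naive and 0.113 to 0.655 in MI libraries.

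**Figure D4:**
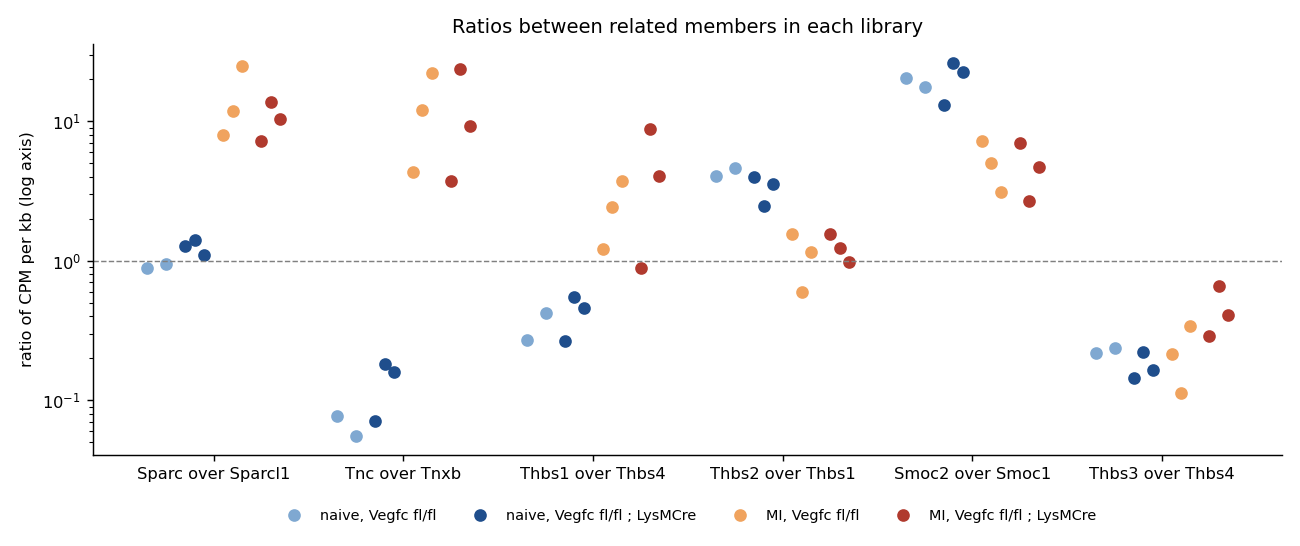
Ratio of CPM per kb between related members (log axis) in each library, coloured by group, with a dashed line at 1. The naive and MI libraries are apart in 5 of the 6 ratios and overlap in Thbs3 over Thbs4, and Sparc over Sparcl1 moves from 0.892 to 1.42 in naive to 7.17 to 24.7 in MI libraries.

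The 6 MI libraries differed among themselves in a pattern that crossed the genotypes. M35 (LysMCre) and M006 (control) had the lowest Thbs1 (248 and 386 CPM) and Tnc (165 and 173 CPM) and the highest Tnxb (68.8 and 63.2 CPM), Sparcl1 (952 and 916 CPM) and Smoc2 (342 and 411 CPM). M40 (control) and M900 (LysMCre) had the lowest Tnxb (19.4 and 21.9 CPM) and the highest Thbs2, at 1037 and 1340 CPM, and Smoc1, at 35.4 and 44.5 CPM. The summed cardiomyocyte markers were 1704 CPM in M40, 3504 in M900, 6836 in M006, 6861 in M913, 8374 in M38 and 15640 in M35. The summed endothelial markers were highest in M006 (1109 CPM) and lowest in M40 (516 CPM). How much of the spread of the members goes with the share of muscle or vessel in the piece of tissue was not tested.

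Relatives of the members by sequence were followed in the same fit, from a list chosen with earlier results of these data known. Of 7 relatives, 5 passed the low-count filter, of which 3 rose and 1 fell after MI in each genotype, also without M149. Of all genes tested, 26.3% rose and 24.1% fell in control and 30.0% rose and 27.7% fell in LysMCre hearts. Comp, the thrombospondin of cartilage, was at 2.45 to 11.4 CPM in naive and 192 to 542 CPM in MI libraries and rose 98.2-fold in control and 61.5-fold in LysMCre hearts, more than any member. Naive M150 and M34 held 5.81 and 11.4 CPM of Comp, and M44, M45 and M149 held 2.45 to 4.22 CPM. After MI it was at 192 to 296 CPM in control and 339 to 542 CPM in LysMCre hearts. Fstl1, a SPARC relative made by the epicardium and fibroblasts, rose from 413 to 565 CPM to 2752 to 4749 CPM. Tnn (tenascin-N) rose from 0 to 0.588 CPM to 2.53 to 12.5 CPM, and Tnr (tenascin-R, known from brain) fell from 0.784 to 1.90 CPM to 0.118 to 0.323 CPM, near the floor of 3 reads. Spock2 was at 1.52 to 2.75 CPM in naive and 1.10 to 5.11 CPM in MI libraries and did not pass the test. Spock1 and Spock3 did not pass the low-count filter, with at most 0.181 CPM in any library.

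Of 15 receptors and partners, 9 rose and 1 fell in control hearts and 10 rose and 2 fell in LysMCre hearts. The shares over all genes tested were 26.3% and 24.1% in control and 30.0% and 27.7% in LysMCre hearts. Cd36, the thrombospondin receptor that also takes up fatty acids, fell from 2488 to 2726 CPM in naive to 263 to 819 CPM in MI libraries, with log2 fold changes of -2.46 in control and -2.23 in LysMCre hearts. Cd47, the other main receptor of thrombospondin-1, was at 162 to 210 CPM in naive and 176 to 245 CPM in MI libraries and did not pass the test in either genotype. Cacna2d1, a calcium channel subunit that thrombospondins bind, fell in LysMCre hearts with adjusted p = 0.0423 and had 0.0876 in control hearts by edgeR. The integrin subunits Itgav, Itgb1, Itgb3 and Itga9 rose in both genotypes, by 1.77-fold (Itga9) to 4.04-fold (Itgav) in control hearts, while Itga8 passed in neither. The tenascin-C receptor Tlr4 did not pass in either genotype with all libraries, and Sdc4 rose 1.77-fold in control and 1.49-fold in LysMCre hearts. The scavenger receptors Stab1, which takes up SPARC, and Lrp1, which clears thrombospondins, rose 1.57-fold and 2.11-fold in control and 1.90-fold and 2.49-fold in LysMCre hearts. Of the latent growth factors, Tgfb3 rose 9.17-fold and 9.62-fold and Tgfb2 3.02-fold and 3.92-fold in control and LysMCre hearts, and Tgfb1 rose 1.62-fold in LysMCre hearts (adjusted p = 0.0125) with 1.499-fold (adjusted p = 0.0511) in control hearts by edgeR. Without M44, a naive control library, 6 and not 10 of these genes passed in control hearts. Without M149, 11 rose and 2 fell in LysMCre hearts, with Tlr4 added (log2 fold change 0.46, adjusted p = 0.0456, edgeR), and Cacna2d1 had adjusted p = 0.00985.

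Of 11 other matricellular genes, 10 were tested, and 9 rose and 1 fell in each genotype, also without M149. Over all genes tested, 26.3% rose and 24.1% fell in control and 30.0% rose and 27.7% fell in LysMCre hearts. Ccn4 rose 64.4-fold in control and 31.0-fold in LysMCre hearts, and Postn, periostin of activated fibroblasts, 51.4-fold and 23.0-fold. Naive M150 and M34 held more Postn (395 and 514 CPM) than M44, M45 and M149 (142 to 205 CPM). Ccn4 was likewise at 4.1 and 5.9 CPM against 1.8 to 2.3 CPM. After MI the genotypes overlapped in Postn, at 7489 to 9464 CPM in control and 6711 to 10310 CPM in LysMCre hearts. Ccn1, Ccn2, Ccn3 and Ccn5, Fbln1 and Fbln5 rose by 3.51-fold (Ccn3) to 15.8-fold (Ccn5) in control hearts. Spp1 (osteopontin) rose 9.27-fold in control hearts with adjusted p = 0.0476 by edgeR, and spread from 144 CPM (M35) to 1663 CPM (M900) among MI libraries. In LysMCre hearts its log2 fold change was 3.04 with M149, which held 332 CPM, and 4.80 without it. Vtn (vitronectin) fell, 6.69-fold lower in control and 2.22-fold lower in LysMCre hearts. Ccn6 was not tested, with at most 0.168 CPM. The median log2 fold changes were 3.13 and 3.05 for the relatives, 0.82 and 0.90 for receptors and partners and 3.18 and 3.11 for the other matricellular genes, in control and LysMCre hearts. The medians over all genes tested were 0.13 and 0.10.

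The genes whose levels ran most like those of a member over the 11 libraries were found by Pearson's r of log2 CPM. All libraries share the step between naive and MI hearts, which lifts r, so r within the 6 MI libraries is given too, as a description. Tnc ran with Ccn4 (r 0.998 over 11 and 0.963 over 6 libraries), Postn (0.997 and 0.840) and Kcnj15 (0.997 and 0.782). Sparc ran with Ltbp3 (0.999 and 0.944), which binds latent TGF-β, Loxl1 (0.998 and 0.915), a crosslinker of elastin, and Tgfb3 (0.998 and 0.889). Thbs1 ran with Loxl3 (0.993 and 0.892), Pou2f2 (0.991 and 0.855) and Kif11, a mitotic motor (0.991 and 0.975). Thbs2 ran with Synpo, Kdelr2 and Clec11a (0.994 to 0.996 over 11 and 0.940 to 0.990 over 6 libraries). Thbs3 ran with Lingo1, Col3a1 and Adamts2 (0.993 to 0.996 over 11 but 0.698 to 0.822 over 6 libraries). Smoc1 ran with Slc39a9, Stt3a and Dnajc3 (0.990 to 0.995 over 11 and 0.968 to 0.979 over 6 libraries), the latter pair acting in protein folding and glycosylation in the endoplasmic reticulum.

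The members that did not rise had other companions. Sparcl1 ran with the endothelial genes Pecam1 (0.950 over 11 and 0.970 over 6 libraries), Mmrn2 (0.918 and 0.971) and Podxl (0.916 and 0.939). Tnxb ran with Sybu, Ccm2l and Stap2 (0.987 to 0.994 over 11 and 0.978 to 0.992 over 6 libraries). Smoc2 ran with Itgb3bp, Raver2 and Cpa3 (0.938 to 0.941 over 11 and 0.872 to 0.958 over 6 libraries). Thbs4, although it rose, had lower values, with Prss30 (0.954 and 0.911), Klk1 (0.948 and 0.786) and Ccr2 (0.945 and 0.727).

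The second question was whether loss of Vegfc in myeloid cells went with other levels of these genes after MI. In LysMCre against control hearts after MI, 0 of 10 members passed the edgeR test, where 0% of all genes passed. The smallest adjusted p among the members was 0.636 (Thbs4), and 0 members had an unadjusted p under 0.05, against 1173 of all genes. DESeq2, which called 51 of all genes, and limma-voom, which called 0, also called 0 members. The median log2 fold change of the members was 0.16, against -0.01 over all genes tested. Thbs3 was the only member whose groups did not overlap, with 55.8 to 64.4 CPM in LysMCre and 36.2 to 55.7 CPM in control hearts, so that the groups almost touched. Such separation was found in 12.1% of all genes. The log2 fold change of Thbs3 was 0.30 (95% interval -0.08 to 0.68, adjusted p = 0.67, edgeR).

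The intervals of the differences were wide for most members. Thbs4 was lower in LysMCre hearts by a log2 fold change of -0.70 (95% interval -1.42 to 0.02), with overlap of the groups, and its unadjusted p was 0.0569. Sparcl1 had 0.47 (-0.27 to 1.21), and without M006 0.94. Thbs1 had -0.14 (-1.18 to 0.89), Thbs2 0.12 (-0.69 to 0.93), Tnc 0.13 (-0.67 to 0.93) and Tnxb 0.22 (-0.78 to 1.23). Sparc had 0.19 (-0.44 to 0.82), Smoc1 0.21 (-0.31 to 0.72) and Smoc2 0.02 (-0.56 to 0.60). For Thbs1, Thbs2, Tnc, Tnxb, Smoc1 and Smoc2 the direction turned when a single MI library was left out. At this number of hearts, changes of about 1 on the log2 scale are inside the interval for Thbs1, Thbs4, Tnxb and Sparcl1. The lists of relatives, of receptors and partners and of other matricellular genes had 0 genes called each by edgeR, with 2, 0 and 1 genes at an unadjusted p under 0.05.

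In naive hearts, 0 members passed the edgeR test between the genotypes, where 0% of all genes passed, 0 members had an unadjusted p under 0.05, against 499 of all 14779 genes. DESeq2, which called 14 of all genes, and limma-voom, which called 6, also called 0 members. The largest difference was that of Tnc, with 3.26 and 4.82 CPM in control and 3.63 to 10.9 CPM in LysMCre hearts (log2 fold change 0.998, 95% interval -0.05 to 2.04, adjusted p = 1, edgeR). The library labelled LysMCre M149 lay between the control libraries. Without M149 the log2 fold change of Tnc was 1.35 (unadjusted p = 0.00508, adjusted p = 0.375, edgeR), and 17 genes of all tested were called. Thbs1 had 0.62 with and 0.85 without M149. M150 and M34 held the higher naive Tnc (9.68 and 10.9 CPM) and Thbs1 (30.3 and 31.2 CPM). Of the naive libraries they also had the most Xist, at 8.11 and 11.8 CPM, against 0.624 to 1.77 CPM in M44, M45 and M149. Whether this goes with the naive differences of Tnc and Thbs1, or with those of Comp, Ccn4 and Postn, was not tested. Sparcl1 was lower in all LysMCre libraries than in the control libraries (606 to 945 against 958 and 1153 CPM), with a log2 fold change of -0.48 (95% interval -1.30 to 0.34) and -0.34 without M149. Groups did not overlap in 22.4% of all genes here. The other 7 members had log2 fold changes between -0.08 (Tnxb) and 0.31 (Thbs4), and between -0.26 (Smoc1) and 0.32 (Thbs2) without M149. The 3 gene lists had 0 genes called between the genotypes in naive hearts and 0 for the interaction, with and without M149.

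**Figure D5:**
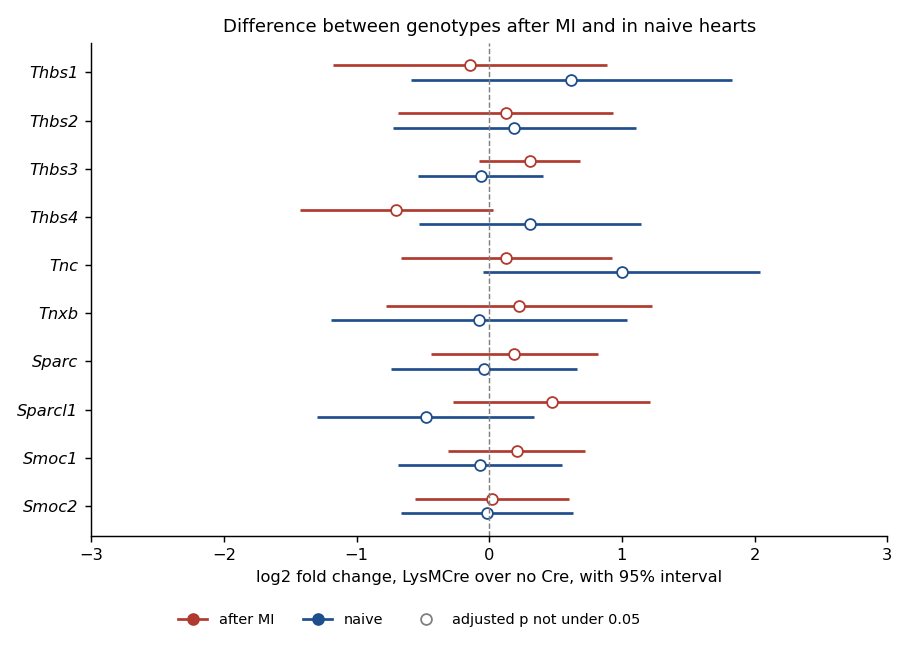
Log2 fold change of LysMCre over control hearts for each member with its 95% interval, after MI and in naive hearts. All points are open, since no member passed the threshold, and the interval of every member includes 0 in both, the nearest to excluding it being Thbs4 after MI (-0.70) and Tnc in naive hearts (0.998).

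Whether the change after MI differed between genotypes was tested as the interaction in the same fit. For the interaction 0 members passed the edgeR test, where 0% of all genes passed, 0 had an unadjusted p under 0.05 with all libraries, against 1226 of all genes, and DESeq2 and limma-voom called 0 members, where they called 55 and 0 of all genes. The largest estimates were -1.005 for Thbs4 (95% interval -2.11 to 0.10, unadjusted p = 0.071, edgeR) and 0.95 for Sparcl1 (-0.15 to 2.05, unadjusted p = 0.0847, edgeR). Tnc had -0.87 and Thbs1 -0.76, and without M149 these were -1.22 (unadjusted p = 0.024, adjusted p = 0.354, edgeR) and -0.99. For Tnc and Thbs1 the larger naive level in LysMCre hearts enters this estimate, since the comparisons share the naive and MI libraries. That larger level was found in M150 and M34, the naive libraries with the most Xist.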

How the data were processed

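Before they deposited the files, the authors counted reads per Ensembl gene for each library, giving whole-number counts without normalization. The submitters' processing notes name cutadapt 1.13, STAR, HTSeq 0.6.1p1, DESeq2 1.14.1 and the build mm10. The annotation release and the strand setting of the count step are not given in the sources used here.

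Genes were filtered with edgeR's filterByExpr by group, counts were scaled by TMM, and all 11 libraries were fitted together with 1 coefficient a group (R 4.3.3, edgeR 4.0.16, quasi-likelihood test). P-values were adjusted by Benjamini-Hochberg over 14779 genes, with a threshold of 0.05. Standard errors are the log2 fold change divided by the root of F. CPM use the TMM-scaled library sizes, and CPM per kb divide them by the joined exon length of GENCODE M21, whose symbols matched 24991 of 25006 gene IDs. The pipeline was tested on simulated counts. DESeq2 1.42.0 and limma 3.58.1 were alternatives, beside other scalings, filters and thresholds, a trend on exon length and leaving out each library.

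The members and lists were chosen with earlier results of these data known. Named were the 10 members, genes of the lists of relatives, of receptors and partners and of other matricellular genes that were called in at least 1 comparison or not detected, and for each member with a mean of at least 1 CPM the 3 genes with the highest r (prior count 2). Spock2, Cd47, Itga8 and Tlr4, which passed no edgeR test with all libraries, were named in addition after their values were seen. The lung marker Scgb1a1 was called lower in both genotypes after MI, with overlapping groups in LysMCre hearts. Marker lists also covered Schwann cells, mesothelium, red cells and atrium. Of these, 1 mesothelial marker rose in each genotype after MI, 4 red cell markers fell in LysMCre hearts, and no Schwann cell or atrial marker was called. Sequences are from RefSeq, GRCm38.p6.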

Additional observations from a re-analysis of the deposited data

How the results depend on the processing

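The rise of Thbs1, Thbs2, Thbs3, Thbs4, Tnc, Sparc and Smoc1 after MI passed the threshold in both genotypes under every alternative run. With a required log2 fold change of at least 1 in size, 6 receptors and partners passed in control hearts (10 without this demand) and 6 in LysMCre hearts (12 without it). Leaving out 1 library gave 6 to 12 of them in control hearts, the lowest without M44, and the cause was not tested. Without M44 or M45 the remaining naive control library was taken to vary like the other groups. Sparcl1 in LysMCre hearts after MI was at a log2 fold change of -0.017 by limma-voom and between -0.041 and 0.29 with 1 library left out. Between genotypes after MI, limma-voom gave 0.18 for Thbs1 and -0.058 for Smoc2, and removing the trend on exon length gave -0.028 for Smoc2. With 1 library left out, the values after MI ran from -0.52 to 0.24 for Thbs1, -0.30 to 0.44 for Thbs2, -0.15 to 0.34 for Tnc, -0.30 to 0.88 for Tnxb, -0.022 to 0.39 for Smoc1 and -0.15 to 0.37 for Smoc2, so none of these had a fixed direction. Tnxb in control hearts was not called when the groups were compared alone (adjusted p = 0.0536). DESeq2 and limma-voom called Sparcl1 in control hearts lower after MI (adjusted p = 0.0283 and 0.0311) and Tnxb in LysMCre hearts (0.0273 and 0.00321). Smoc2 in LysMCre hearts was called lower after MI by limma-voom (-0.527, adjusted p = 0.0441). With the trend on exon length removed, edgeR called both Smoc2 (-0.73, adjusted p = 0.0434) and Tnxb (-1.446, adjusted p = 0.0227) lower in LysMCre hearts. The order of levels after MI in control hearts kept 6 of 10 places when the longest transcript gave the length, and of the 30 genes most like a member 3 stayed when Spearman's rho was used. Removing the trend on exon length moved the median of all genes by -0.11 and -0.12 in control and LysMCre hearts after MI. No paired analysis was possible because the groups share no replicate numbers. The 95% intervals of the genotype differences after MI include a log2 change of 1 in size for Thbs1, Thbs4, Tnxb and Sparcl1.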
